A study of Homo sapiens with 8 samples.

Results

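Weightless flight was compared with ground control in HMEC-1 cells, using 6 of the 8 RNA-seq libraries of the series. The members were taken from the labels: the 3 libraries labelled space_microg and the 3 labelled ground, with every gene of at least 1 CPM (counts per 1000000 reads, scaled by the authors) in at least 2 libraries. HMEC-1 is a line of human microvascular endothelial cells from skin, immortalised with the large T antigen of the virus SV40, a protein that binds p53, so all groups share that background and 1 line. All cultures were seeded on gelatin-coated plastic coverslips at 37 °C in medium with 10% serum, then sealed in automated culture units. The space_microg units were carried to the International Space Station and kept free of the onboard centrifuge. The ground units travelled by airliner to the home laboratory and were run there at the same times in a facility of their own. Cells in orbit were fixed before return, and the labels give a storage temperature of 6 °C before extraction. Weightlessness therefore cannot be told apart from launch, radiation, travel, hardware or the time in fixative in this contrast. The other 2 libraries came from the onboard centrifuge at 1 g (space_1g) and entered the statistical fit only as a source of spread between libraries. Whether the replicates of a group were grown as separate cultures is not stated, and the spread that the p-values rest on may be technical.

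Endothelial cells line blood vessels, take up their shape on a basement membrane, and respond to mechanical load through adhesions, the actin cytoskeleton and shear-sensitive genes. They receive growth signals through the VEGF and angiopoietin receptors and choose between tip, stalk and arterial states by Notch signalling. Several housekeeping pathways are run by feedback: heat shock factor 1 raises chaperone genes when proteins unfold, and SREBP-2 raises the genes of cholesterol synthesis when membrane sterol is low. RBM3 and CIRBP are RNA-binding proteins known for their induction by mild cooling.

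Promoter windows of 3 genes are shown because several heat shock and sterol genes were lower in the flight libraries and because each window was picked for holding a copy of its pathway's DNA element. They run from 250 bases before to 50 bases after the annotated gene start, were taken from RefSeq on GRCh38.p14, and are written 5′ to 3′ on the gene's strand. Capitals mark GAANNTTC or TTCNNGAA, pairs of inverted heat shock repeats, in HSPA1A (chr6:31815293-31815592, plus strand) and in the window of the downstream start of HSP90AA1 (chr14:102086995-102087294, minus strand). In SREBF2 (chr22:41832855-41833154, plus strand), capitals mark TCACNCCAC, a form of the sterol regulatory element that was chosen after the values of the gene were seen.
HSPA1A: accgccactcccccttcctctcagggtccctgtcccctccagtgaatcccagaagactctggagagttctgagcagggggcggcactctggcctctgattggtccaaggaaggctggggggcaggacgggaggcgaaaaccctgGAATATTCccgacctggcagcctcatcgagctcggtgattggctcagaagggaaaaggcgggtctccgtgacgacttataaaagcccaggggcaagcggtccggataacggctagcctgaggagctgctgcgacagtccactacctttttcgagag
HSP90AA1: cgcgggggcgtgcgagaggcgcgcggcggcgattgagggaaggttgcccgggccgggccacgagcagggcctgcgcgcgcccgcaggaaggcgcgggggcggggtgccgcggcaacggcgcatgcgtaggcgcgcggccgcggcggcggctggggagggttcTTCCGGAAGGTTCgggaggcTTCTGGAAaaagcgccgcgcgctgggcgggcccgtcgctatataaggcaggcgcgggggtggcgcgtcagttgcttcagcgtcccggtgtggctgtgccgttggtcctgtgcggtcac
SREBF2: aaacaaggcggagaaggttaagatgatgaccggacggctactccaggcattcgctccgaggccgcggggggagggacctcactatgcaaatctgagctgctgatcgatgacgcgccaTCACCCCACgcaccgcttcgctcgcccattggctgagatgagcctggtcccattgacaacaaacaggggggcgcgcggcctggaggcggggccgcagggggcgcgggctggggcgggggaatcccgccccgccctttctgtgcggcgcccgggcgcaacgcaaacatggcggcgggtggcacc

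The match in HSPA1A starts at -106 from the gene start, the 3 matches in HSP90AA1 at -88, -83 and -68, of which the first pair overlap, and the match in SREBF2 at -133. The window of the other annotated start of HSP90AA1 held 0 matches and is not shown. On both strands, GAANNTTC or TTCNNGAA was found in at least 1 window of 19 of the 30 heat shock genes with an entry (63.3%) and in 16.2% of the 27305 genes in the RefSeq table. TCACNCCAC was found in the windows of 1 of the 19 sterol genes with an entry (5.26%) and of 1.39% of all genes. It was 1 of 3 forms of the element searched, and the others, the same letters with an A before them and that longer form with no open position, were also found in SREBF2 alone among the sterol genes and in 0.19% and 0.0586% of all genes. A match is a description of the sequence and not a measured binding site.

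Library depth was between 24248964 and 35388757 reads in the listed genes, at which 1 read is worth 0.0285 to 0.0398 CPM. Ground replicate 3 stood apart from its group: on the first principal component of all 8 libraries (61.9% of the variance) it scored -64.7, against 20.7 and 31.1 for the other ground libraries and -1.51, 29.8 and 22.5 for space_microg replicates 1 to 3. It was not alone there, since space_1g replicate 1 scored -60.7 and space_1g replicate 2 scored 22.7. Ground replicate 3 and space_1g replicate 1 also shared the direction of several gene lists, with median deviations of 1.01 and 1.26 for p53 targets, 1.74 and 1.36 for interferon-induced genes and -1.03 and -2.02 for core histones. Of the flight libraries in the contrast, space_microg replicate 2 was the one whose deviations most followed the base composition and length of transcripts together. These accounted for 53.9% of them and for 2.00% to 21.0% in each other library, with 13.9% in space_microg replicate 3. With length alone, the rank correlation was largest in size in space_microg replicate 3, at -0.19, against 0.09 in replicate 2. Lists are therefore given with all libraries and again without ground replicate 3. For single genes that second value is given where it differs by over 1.5 times or changes whether the groups overlap. Values with the trend on base composition and length removed are given where they move a gene's difference by over 1.5 times or a list's median by over 0.1.

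Across the 16103 genes kept, none passed the test at an adjusted p of 0.05 (0.0%; limma with Benjamini-Hochberg adjustment, smallest adjusted p 0.866), so no gene below is called changed by it. At an unadjusted p under 0.05, 330 genes were higher in flight (2.05%) and 366 lower (2.27%), together 4.32%. Without ground replicate 3, limma again called 0.0%, with a smallest adjusted p of 0.735. At an unadjusted p under 0.05, 376 genes were then higher (2.33%) and 666 lower (4.14%), together 6.47%. That fit still held space_1g replicate 1. With only the 2 groups compared and no ground replicate 3, limma called 0 genes, but the smallest adjusted p was 0.0677, for RBM3. In that fit 12.6% of genes had an unadjusted p under 0.05. On reads recovered from the deposited values, edgeR's quasi-likelihood test called 0 genes, with 473 higher and 268 lower at an unadjusted p under 0.05, and DESeq2 called 3: RBM3 higher, ADCY4 and FBLN5 lower. All 3 flight libraries lay above all 3 ground libraries in 1269 genes (7.88%) and below them in 1052 (6.53%). With ground replicate 3 left out, these shares were 16.7% and 16.6%, together 33.2%. Leaving out ground replicate 1 or 2 instead gave 21.6% and 22.8% without overlap in both directions together. These shares are the background for every count of genes whose groups do not overlap. The leading genes of each direction, described next, were taken only from genes without overlap, so that they separate the groups follows from the rule.

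**Figure D1:**
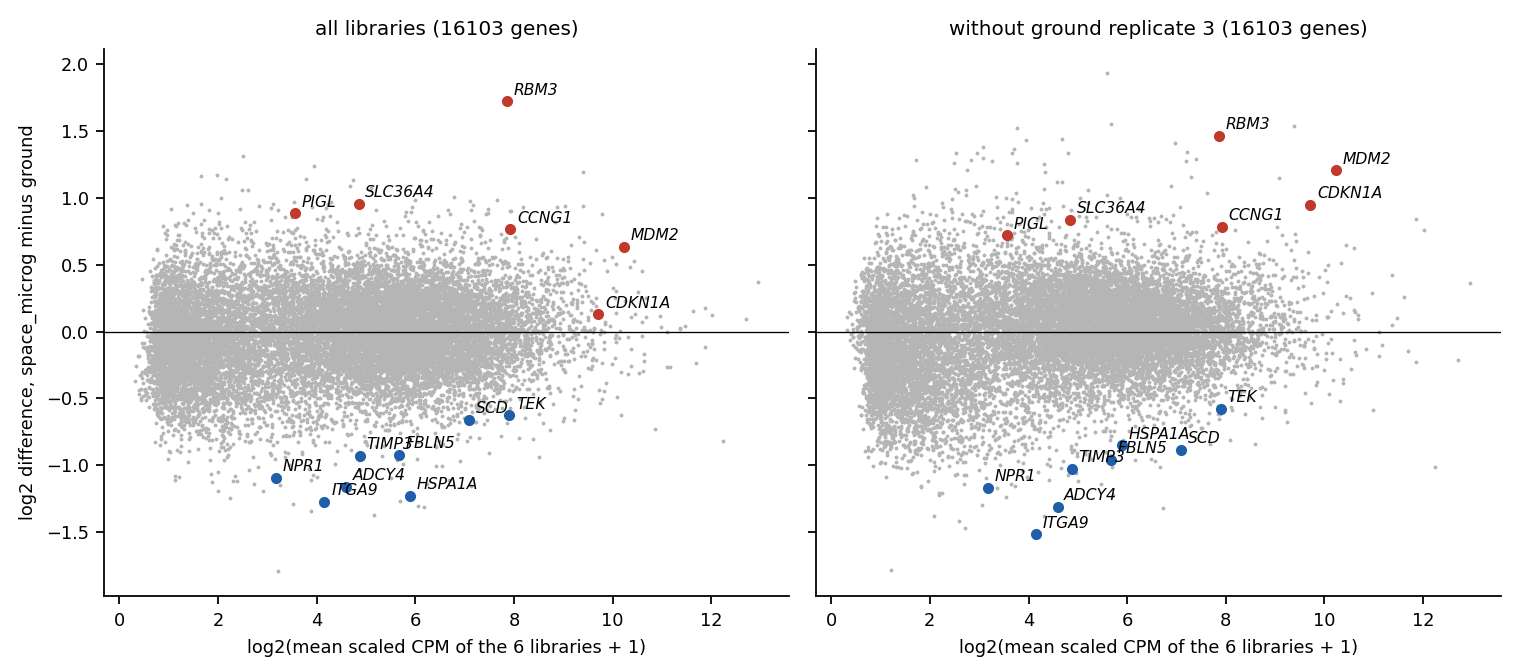
Difference of space_microg minus ground on the log2(CPM + 1) scale (vertical) against the mean level of the 6 libraries (horizontal, log2) for the 16103 genes kept, with all libraries on the left and without ground replicate 3 on the right. RBM3 is at 1.72 on the left and 1.46 on the right, above the cloud at its level, while CDKN1A moves from 0.13 to 0.95 once that library is left out.

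RBM3, the cold-inducible RNA-binding protein, was the gene with the smallest p. It lies on chromosome X from 48574449 to 48579066 (GENCODE v29, GRCh38). Its level was 311, 333 and 418 CPM in the flight libraries and 122, 132 and 73.5 CPM in the ground libraries. Every flight library was above 2 times the highest ground library, and ground replicate 3 was the lowest of all. The means were 354 ± 56.8 and 109 ± 31.2 CPM (SD, n = 3 each), and the log2 difference was 1.72 ± 0.27 (SE). Against ground replicates 1 and 2 alone, it was 1.46 ± 0.23, and leaving out single libraries gave 1.46 to 1.88. DESeq2 gave an adjusted p of 0.000221, and over all alternatives run the adjusted p lay between 0.000221 and 1. CIRBP, the other well-known cold-inducible member, had 82.0, 83.6 and 89.1 CPM in flight against 61.0, 80.9 and 68.8 CPM on the ground, a log2 difference of 0.28 ± 0.15, or 0.43 with the trend on base composition and length removed. Of the 6 cold-inducible genes listed, 4 had a positive difference and 2 a negative one. CLK1, 1 of the 2, was at -0.21, or -0.50 with the trend on base composition and length removed. In 3 of the 6 the groups did not overlap, all higher in flight (50%, against 7.88% of all genes). The list's median was 0.20, or 0.12 without ground replicate 3.

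SLC36A4, an amino acid transporter of the proton-assisted family, was the next gene by p among those higher in flight. It had 33.1, 40.5 and 37.1 CPM in flight and 17.6, 23.0 and 15.5 CPM on the ground. The groups were well separated, with a log2 difference of 0.96 ± 0.21, which was 0.84 without ground replicate 3 and 0.65 with the trend on base composition and length removed. CCNG1, which encodes cyclin G1 and is a target of p53, had 249, 323 and 342 CPM in flight and 157, 196 and 182 CPM on the ground, a log2 difference of 0.77 ± 0.18. Here ground replicate 3 was in the middle of its group, and the difference without it was 0.78. PIGL, which removes the acetyl group from an early intermediate of the GPI anchor, had 13.8, 15.4 and 13.4 CPM in flight and 7.68, 8.77 and 5.55 CPM on the ground, a log2 difference of 0.88 ± 0.21. The flight values of PIGL were close together.

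Among the other leading genes higher in flight, GSTZ1, an enzyme of tyrosine breakdown, had 17.8, 25.4 and 31.9 CPM against 11.3, 12.7 and 11.9 CPM. Its ground libraries were close together and its flight libraries were spread, and the log2 difference was 0.97 ± 0.26. PI4K2B, a lipid kinase that makes phosphatidylinositol 4-phosphate, had 46.1, 41.6 and 52.4 CPM against 28.6, 23.3 and 21.4 CPM, a log2 difference of 0.91 ± 0.24. RSL24D1, a factor that helps assemble the large ribosomal subunit, had 86.1, 127 and 128 CPM against 67.7, 61.3 and 54.8 CPM, a log2 difference of 0.86. RSL24D1 was lower in space_microg replicate 1 than in the other flight libraries. LYPLA1, an enzyme that removes palmitate from proteins, differed by 0.75, RBBP9, a serine hydrolase, by 0.66, and ENY2, a subunit of the SAGA complex and of the mRNA export complex TREX-2, by 0.62, or 0.39 with the trend on base composition and length removed.

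PTP4A1 and RASSF8 had flight libraries close together. PTP4A1, a membrane-attached phosphatase, had 127, 129 and 128 CPM in flight and 79.3, 87.7 and 96.5 CPM on the ground, a log2 difference of 0.54 ± 0.14. RASSF8, linked to cell junctions, had 81.1, 90.1 and 79.7 CPM against 58.7, 57.2 and 60.6 CPM, a log2 difference of 0.50 ± 0.12. With the trend on base composition and length removed, the differences of PTP4A1 and RASSF8 were 0.25 and 0.23. BDH1, named for the size of its difference rather than for its p, was spread more widely. It encodes an enzyme of ketone body metabolism and had 5.01, 7.15 and 9.12 CPM against 4.59, 3.82 and 1.04 CPM. Ground replicate 3 was far below the other ground libraries for BDH1, and without it the log2 difference went from 1.06 to 0.61.

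ADCY4, an adenylyl cyclase that makes cyclic AMP, was the gene with the smallest p among those lower in flight (chromosome 14, 24318349 to 24335093). It had 15.4, 14.7 and 11.3 CPM in flight and 37.2, 33.8 and 26.0 CPM on the ground. The highest flight library was well below the lowest ground library. The means were 13.8 ± 2.17 and 32.3 ± 5.77 CPM (SD, n = 3 each), and the log2 difference was -1.16 ± 0.20, or -1.31 without ground replicate 3. FBLN5, a secreted protein that tethers elastic fibres to cells (chromosome 14, 91869412 to 91947987), had 37.9, 29.2 and 35.1 CPM in flight and 75.5, 59.4 and 61.6 CPM on the ground. The groups were again far apart, with a log2 difference of -0.92 ± 0.16, or -0.96 without ground replicate 3. DESeq2 gave adjusted p-values of 0.000571 for ADCY4 and 0.00332 for FBLN5, and the highest adjusted p over all alternatives was 1 for both.

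NPR1, the receptor for atrial natriuretic peptide, which makes cyclic GMP, had 5.38, 4.0 and 4.86 CPM in flight and 14.3, 9.76 and 9.99 CPM on the ground, a log2 difference of -1.09 ± 0.25. TIMP3, a matrix-bound inhibitor of metalloproteinases, had 19.4, 17.7 and 20.3 CPM against 44.2, 36.4 and 32.3 CPM, a log2 difference of -0.93 ± 0.22. TPM2, a tropomyosin of actin filaments, had 24.4, 21.7 and 19.6 CPM against 39.3, 40.3 and 34.9 CPM, a log2 difference of -0.78 ± 0.18. Leaving out ground replicate 3 made each of these 3 differences larger in size, to -1.17, -1.03 and -0.84. EXOC3L1, related to a subunit of the exocyst, had 21.4, 13.5 and 20.3 CPM against 37.0, 32.4 and 46.4 CPM, a log2 difference of -1.04 ± 0.23 that was -0.90 without ground replicate 3.

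Further genes lower in flight by the same rule were AEBP1, a secreted protein that binds collagen, at 143, 92.4 and 108 CPM against 190, 177 and 225 CPM. KAT2A, the histone acetyltransferase of SAGA, had 43.1, 42.2 and 37.4 CPM against 57.8, 65.2 and 69.1 CPM. LLGL2, a cell polarity protein, had 6.86, 6.86 and 10.4 CPM against 16.3, 13.2 and 18.1 CPM. Their log2 differences were -0.80, -0.63 and -0.91, without overlap of the groups, which the rule required. ITGA9, an integrin chain that binds tenascin and osteopontin, was named for size: it had 11.3, 8.75 and 7.25 CPM against 37.2, 20.3 and 16.2 CPM, a log2 difference of -1.28 ± 0.33. Ground replicate 1 was the highest library for ITGA9, and without it the difference was -0.94. COL6A3, a chain of collagen VI, had 9.80, 6.62 and 4.80 CPM against 18.9, 11 and 31.8 CPM, and SLCO4A1, an organic anion transporter, had 38.8, 22.3 and 24.0 CPM against 48.2, 58.5 and 109.8 CPM. In COL6A3 and SLCO4A1 ground replicate 3 was the highest library of the 6, and without it the log2 differences went from -1.34 to -0.98 and from -1.27 to -0.92.

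**Figure D2:**
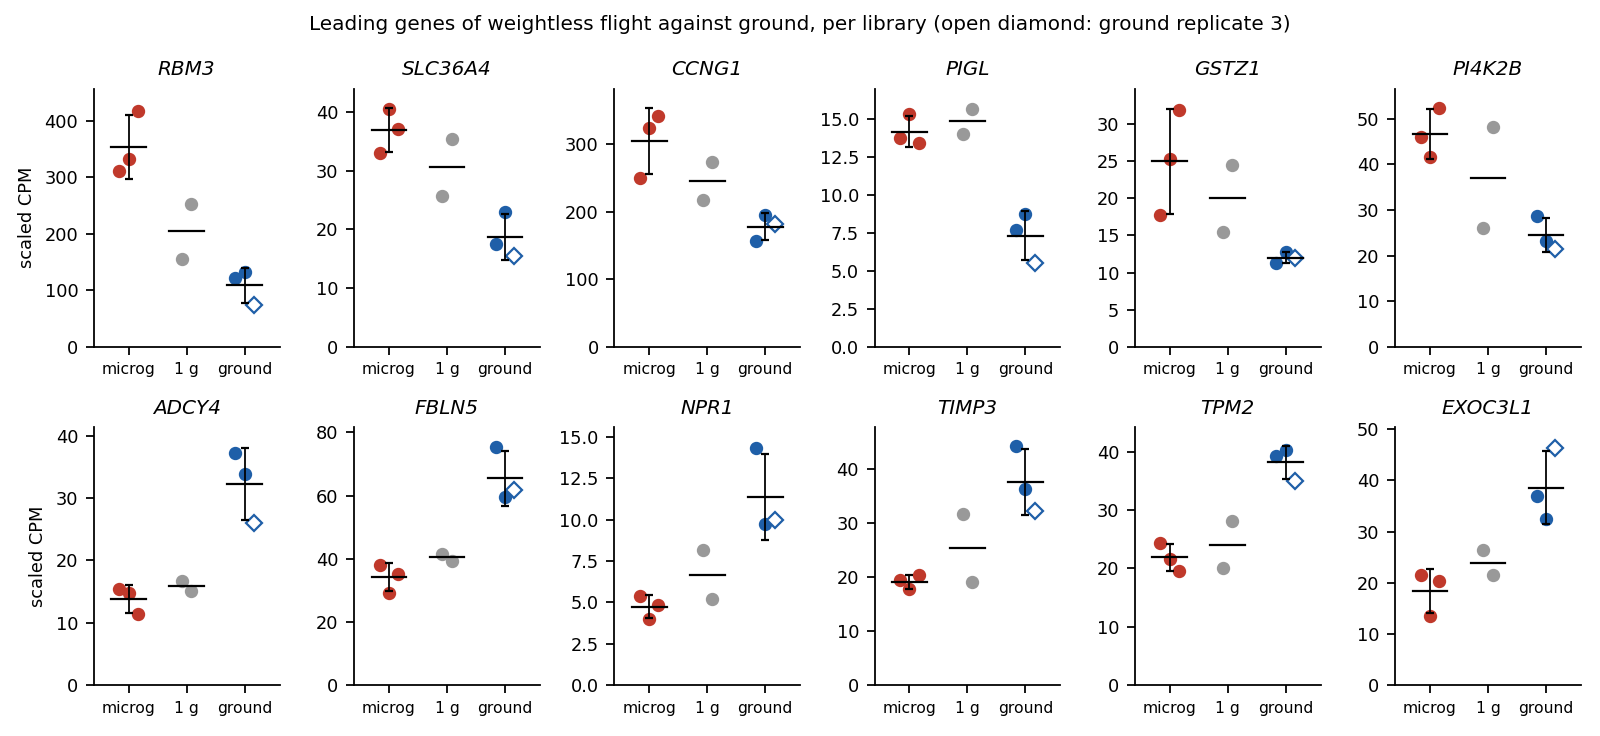
Scaled CPM per library for 6 genes higher (top) and 6 lower (bottom) in space_microg than in ground, with the space_1g libraries in grey; bars are means and, for groups of 3, whiskers are ± SD. The genes were picked from those without overlap. All space_microg points therefore lie above the ground points in the top row and below them in the bottom row. RBM3 is at 311 to 418 against 73.5 to 132 CPM, and the open diamond is ground replicate 3.

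Genes of cholesterol synthesis were lower in flight, most clearly against ground replicates 1 and 2. Of 26 genes listed, 11 had all flight libraries below all ground libraries and 0 had all above, against 6.53% and 7.88% of all genes. Of these 26, 8 were lower at an unadjusted p under 0.05 and none higher, against 2.27% and 2.05% of all genes, and none passed the adjusted test. The median log2 difference was -0.17, beside -0.02 over all genes, and without ground replicate 3 it was -0.39, with 16 of 26 not overlapping (lower). The list was chosen with earlier results of these data known, so its count is not independent evidence of its direction.

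SREBF2, which encodes the sterol-sensing transcription factor SREBP-2 and whose promoter is shown above, had 132, 125 and 128 CPM in flight and 168, 181 and 153 CPM on the ground. The flight libraries were close to each other and all below the ground libraries, with a log2 difference of -0.38 ± 0.13 that was -0.16 with the trend on base composition and length removed. SQLE, squalene epoxidase, the first oxygen-requiring step, had 57.8, 51.0 and 54.8 CPM against 84.6, 74.6 and 69.2 CPM, a log2 difference of -0.47 ± 0.14. LSS, which closes the sterol rings, had 79.6, 62.1 and 66.2 CPM against 98.7, 96.6 and 105 CPM. CYP51A1, a demethylase of the next step, had 116, 119 and 107 CPM against 157, 145 and 127 CPM. Like SQLE, both had no overlap between the groups, with log2 differences of -0.53 and -0.33, and that of LSS was -0.31 with the trend on base composition and length removed.

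Ground replicate 3 divided the pathway. INSIG1, the sterol-dependent brake on SREBP-2, had 38.0, 40.1 and 47.1 CPM in flight and 71.9, 72.4 and 31.4 CPM on the ground. HMGCS1, an early enzyme of the mevalonate pathway, had 44.4, 47.6 and 44.4 CPM against 64.7, 60.1 and 29.8 CPM. In INSIG1 and HMGCS1, ground replicate 3 was below every flight library and the other ground libraries were above them. The log2 differences without it were -0.78 and -0.45, and with it -0.39 and -0.10. With all libraries and the trend on base composition and length removed, HMGCS1 was at -0.28. SCD, the desaturase that makes oleic acid, had 116, 105 and 89.5 CPM in flight and 181, 202 and 120 CPM on the ground, a log2 difference of -0.66 ± 0.21, or -0.88 without ground replicate 3. The fatty acid synthesis list as a whole had 2 of 18 genes lower without overlap (11.1%) and 1 higher, with a median of -0.18. Without ground replicate 3, 7 of 18 were lower (38.9%, against 16.6% of all genes) and 2 higher, 14 of 18 had a negative difference, and the median was -0.13.

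**Figure D3:**
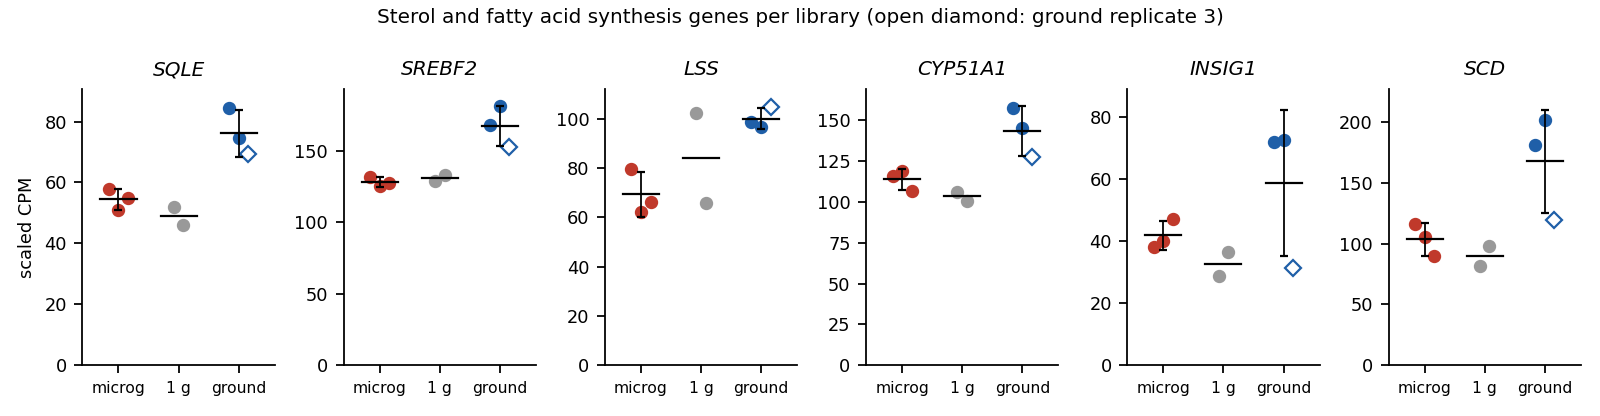
Scaled CPM per library for 5 genes of the cholesterol synthesis list and for SCD; bars are means and whiskers ± SD for groups of 3. Ground replicate 3 (open diamond) joins its group for SQLE, at 69.2 CPM, but falls below every space_microg library for INSIG1, at 31.4 against 38.0 to 47.1 CPM.

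Genes that mark endothelial cells were lower in flight; in bulk RNA, fewer cells with these transcripts and less RNA per cell cannot be told apart. All flight libraries were below all ground libraries in 6 of 32 genes of this list, with 0 above, and 24 of 32 had a negative difference. The median was -0.37, and -0.36 without ground replicate 3, when 16 of 32 did not overlap (lower) against 16.6% of all genes. The list was lowest in space_microg replicate 2, the library most tied to base composition and length together. Its median deviation there from the mean of the 6 libraries was -0.47, beside 0.13 and -0.09 in the other flight libraries. On the ground it was 0.24, 0.18 and 0.05, so space_microg replicate 1 lay above ground replicate 3. Without that library the list's median was -0.16, and with the trend on base composition and length removed it was -0.27.

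TEK, the angiopoietin receptor TIE2, had 228, 178 and 159 CPM in flight and 297, 261 and 309 CPM on the ground, a log2 difference of -0.63 ± 0.19. KDR, the main VEGF receptor, had 147, 120 and 114 CPM against 176, 164 and 194 CPM, a log2 difference of -0.49 ± 0.20. Removing the trend on base composition and length gave -0.67 for TEK and -0.47 for KDR. FLT1, the decoy VEGF receptor, had 39.0, 25.8 and 18.4 CPM against 46.6, 43.7 and 93.7 CPM, and its log2 difference of -1.09 was -0.75 without ground replicate 3. TIE1, the partner of TIE2, had 326, 213 and 302 CPM against 342, 339 and 482 CPM, and its log2 difference of -0.47 was -0.30 without ground replicate 3 and -0.26 with the trend removed. In these 4 receptors no flight library reached a ground library. The junction proteins PECAM1 and CDH5 did overlap, PECAM1 with 300, 219 and 245 CPM against 349, 367 and 201 CPM. With ground replicate 3 left out, neither overlapped, and the log2 difference went from -0.23 to -0.50 for PECAM1 and from -0.42 to -0.56 for CDH5. That of PECAM1 was -0.13 with all libraries and the trend removed. FGF2, a growth factor for endothelial cells, ran the other way, with 97.7, 96.4 and 90.4 CPM against 76.2, 70.3 and 64.1 CPM, a log2 difference of 0.43 ± 0.15 that was 0.21 with the trend removed. The list of VEGF, angiopoietin and other angiogenic signals had 7 of 33 genes lower without overlap (21.2%) and 1 higher, and 11 of 33 (33.3%) and 2 without ground replicate 3. Its median was -0.18, or -0.25 without that library and -0.07 with the trend removed.

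Notch ligands were lower as well. DLL4, the ligand of tip cells, had 3.96, 2.6 and 4.13 CPM in flight and 6.55, 7.17 and 7.23 CPM on the ground, a log2 difference of -0.82 ± 0.22. JAG1 had 165, 106 and 105 CPM against 231, 177 and 297 CPM, a log2 difference of -0.91 ± 0.33. DLL1 had 2.16, 1.46 and 2.65 CPM against 4.26, 2.91 and 3.28 CPM. All 3 ligands were separated between the groups, whereas the receptor NOTCH1, at 252, 113 and 183 CPM against 296, 252 and 290 CPM, met the ground range in space_microg replicate 1. The NOTCH1 difference of -0.68 was -0.26 with the trend on base composition and length removed, and that of DLL4 was -0.65. Over the Notch list 5 of 25 genes were lower without overlap (20%, against 6.53% of all genes) and 0 higher, with a median of -0.23. The list's median deviation was 0.02, -0.47 and -0.19 in the flight libraries and 0.09, -0.12 and 0.46 on the ground. Space_microg replicate 1 was therefore above ground replicate 2, and the extremes were space_microg replicate 2 and ground replicate 3. Against ground replicates 1 and 2 alone, the counts were 7 and 1 and the median was -0.20.

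The list of cyclic nucleotide signalling held genes of both directions. Of 28 adenylyl cyclases, phosphodiesterases and effectors, 6 were lower (21.4%) and 3 higher (10.7%) without overlap. Over all genes these shares were 6.53% and 7.88%, and the list's median was -0.03. Without ground replicate 3 the counts were 8 (28.6%) and 5 (17.9%), against 16.6% and 16.7% of all genes, with a median of -0.09. ADCY7, another cyclase, had 64.1, 47.5 and 48.8 CPM against 77.1, 85.3 and 87.5 CPM, and ADCY9 had 69.0, 56.4 and 61.2 CPM against 81.6, 76.9 and 88.5 CPM. PDE2A, which degrades cyclic AMP and is stimulated by cyclic GMP, had 101, 73.1 and 81.0 CPM against 123, 137 and 142 CPM. ADCY7, ADCY9 and PDE2A had no overlap between the groups, and their log2 differences were -0.64, -0.40 and -0.66. The other genes lower without overlap were ADCY4, described above, RAPGEF3, an exchange factor activated by cyclic AMP, at -0.56, and the cyclase ADCY3 at -0.13. With the trend on base composition and length removed RAPGEF3 was at -0.29 and ADCY3 had the other sign, 0.08. The 3 genes higher were PRKACB at 0.51, PRKAR1A at 0.23 and PRKAR2A at 0.29, subunits of protein kinase A that were chosen after their values were seen. PRKAR1A was at 0.10 without ground replicate 3, and with the trend on base composition and length removed PRKAR1A was at 0.03 and PRKACB at 0.28. ADCY9 was -0.13 with the trend on base composition and length removed, where ADCY7 was -0.46.

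In the extracellular matrix, lists as a whole were close to the background: 3 of 33 collagens and laminins were lower and 0 higher without overlap, and 1 of 21 elastic fibre genes, FBLN5 itself, was lower. With ground replicate 3 left out, 7 of 33 collagens and laminins were lower (21.2%) and 2 higher, and 2 of 21 elastic fibre genes were lower and 0 higher. The median of the collagens and laminins was -0.27, or -0.18 without ground replicate 3, and had the other sign, 0.04, with the trend on base composition and length removed. That of the elastic fibre genes was -0.05, -0.03 and 0.06 in the same order. LAMB2, a laminin chain of the basement membrane, had 472, 376 and 382 CPM against 506, 554 and 613 CPM, a log2 difference of -0.45 that was -0.17 with the trend on base composition and length removed. TIMP4, a relative of TIMP3, had 9.03, 9.86 and 9.19 CPM against 11.5, 15.3 and 19.0 CPM, a log2 difference of -0.63.

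Actin genes leaned higher, with 12 of 48 above all ground libraries and 1, TPM2, below them, against 7.88% and 6.53% of all genes. The median was 0.16 (0.14 without ground replicate 3). The list's median deviation was 0.11, -0.05 and 0.21 in the flight libraries and 0.00, -0.16 and -0.04 on the ground. Space_microg replicate 2 was thus below ground replicates 1 and 3, and its summed level, 17592 CPM, was the lowest of the 6 libraries (18552 to 21769 CPM on the ground). MYL12A, a regulatory light chain of non-muscle myosin, had 344, 360 and 388 CPM in flight and 279, 254 and 280 CPM on the ground, a log2 difference of 0.42 ± 0.13. ACTR2, a core subunit of the branching complex ARP2/3, had 335, 318 and 317 CPM against 250, 264 and 179 CPM. CAPZA2, a capping protein of filament ends, had 146, 185 and 211 CPM against 136, 133 and 105 CPM. Their flight libraries lay above the ground libraries in each case, for CAPZA2 by a narrow margin, with log2 differences of 0.50 for ACTR2 and 0.52 for CAPZA2. ACTR2 was at 0.33 without ground replicate 3 and at 0.28 with the trend on base composition and length removed. Targets of YAP and TAZ, the factors that answer cell tension, had 3 of 24 genes higher and 0 lower without overlap and a median of 0.04. Against ground replicates 1 and 2 alone, the counts were 5 and 2 and the median 0.01. Among the 3 was AJUBA, with 94.8, 75.6 and 91.4 CPM against 70.3, 53.8 and 70.8 CPM.

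Heat shock chaperones were lower in flight in 25 of 33 genes, of which 4 did not overlap (12.1%, against 6.53% of all genes), with 0 higher. Without ground replicate 3 the counts were 4 lower (12.1%) and 3 higher (9.09%), below the 16.6% and 16.7% of all genes. Their median was -0.30, and -0.12 without ground replicate 3, the library with the highest summed level of the list. The sums were 6699, 6304 and 6586 CPM in flight and 8689.6, 6231 and 9762 CPM on the ground, so ground replicate 2 was at the level of the flight libraries and the sums overlap. HSPH1, a nucleotide exchange factor of HSP70, had 144, 129 and 123 CPM in flight and 272, 161 and 208 CPM on the ground, a log2 difference of -0.66 ± 0.20, or -0.67 without ground replicate 3. FKBP4, a co-chaperone of HSP90, had 87.5, 86.0 and 101 CPM against 151, 101 and 165 CPM. AHSA1, which activates the ATPase of HSP90, had 64.6, 61.7 and 67.7 CPM against 105, 70.9 and 117 CPM. In FKBP4 and AHSA1, as in HSPH1, ground replicate 2 was the ground library nearest to flight.

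HSP90AA1, the inducible HSP90 whose window with 3 matches is shown above, had 837, 772 and 792 CPM in flight and 1193, 907 and 1059.7 CPM on the ground, a log2 difference of -0.39 ± 0.17 without overlap. HSPA1A, the inducible HSP70, had 42.4, 21.9 and 33.9 CPM in flight and 83.8, 39.8 and 128 CPM on the ground. Ground replicate 2 was inside the flight range for HSPA1A, and the log2 difference of -1.23 ± 0.43 was -0.85 without ground replicate 3. HSPA1A has a near-identical neighbour, HSPA1B, so how reads were split between the pair is uncertain. Of the 4 chaperone genes lower without overlap, 3 had a promoter entry and 1, HSP90AA1, held a match.

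Genes of the cytosolic ribosome were higher in flight as a group: 78 of 79 had a positive difference and 41 of 79 had all flight libraries above all ground libraries, against 7.88% of all genes. The median was 0.50, and 0.51 without ground replicate 3, with 57 of 79 not overlapping. RPL27, a protein of the large subunit, had 112, 133 and 220 CPM in flight and 96.4, 67.6 and 92.4 CPM on the ground, a log2 difference of 0.81 ± 0.26. RPL34, of the same subunit, had 131, 175 and 244 CPM against 115, 90.0 and 80.9 CPM. In both genes space_microg replicate 3 was far above the other libraries and replicate 1 was close to ground replicate 1. Over the list, the median deviation was -0.06, 0.16 and 0.65 in the flight libraries and -0.17, -0.39 and -0.19 on the ground. Without space_microg replicate 3 the list's median was 0.29. Ribosomal protein genes have many processed pseudogene copies, so their values are uncertain where reads could be shared.

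Nuclear genes of oxidative phosphorylation were highest in space_microg replicate 3 as well, with a median deviation of 0.45, while ground replicate 3, at 0.04, lay above the other flight libraries, at -0.04 and -0.01. Of 76 genes, 68 had a positive difference, 9 were higher without overlap and 0 lower, with a median of 0.27 that was 0.11 without space_microg replicate 3. With ground replicate 3 left out, it was 0.35, with 22 of 76 higher (28.9%) and 0 lower. COX7C, a subunit of cytochrome c oxidase, had 64.3, 71.9 and 115 CPM in flight and 62.4, 46.7 and 43.1 CPM on the ground. SDHD, a membrane anchor of complex II, had 72.1, 83.1 and 97.5 CPM against 67.9, 62.0 and 56.8 CPM, and its log2 difference of 0.42 was 0.26 with the trend on base composition and length removed. The proteasome had 6 of 33 genes higher and 0 lower, with a median of 0.16. Against ground replicates 1 and 2 alone, 18 of 33 were higher, beside 16.7% of all genes, and the median was 0.28. PSMD12, of the proteasome lid, had 74.8, 80.3 and 83.0 CPM in flight and 60.5, 58.8 and 59.1 CPM on the ground, a log2 difference of 0.41 ± 0.12 that was 0.18 with the trend on base composition and length removed. EEF1B2, an exchange factor of translation elongation, had 203, 261 and 323 CPM against 193, 147 and 166 CPM, and the translation factor list had 6 of 38 genes higher without overlap and 0 lower, or 17 and 0 without ground replicate 3, with medians of 0.12 and 0.24.

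**Figure D4:**
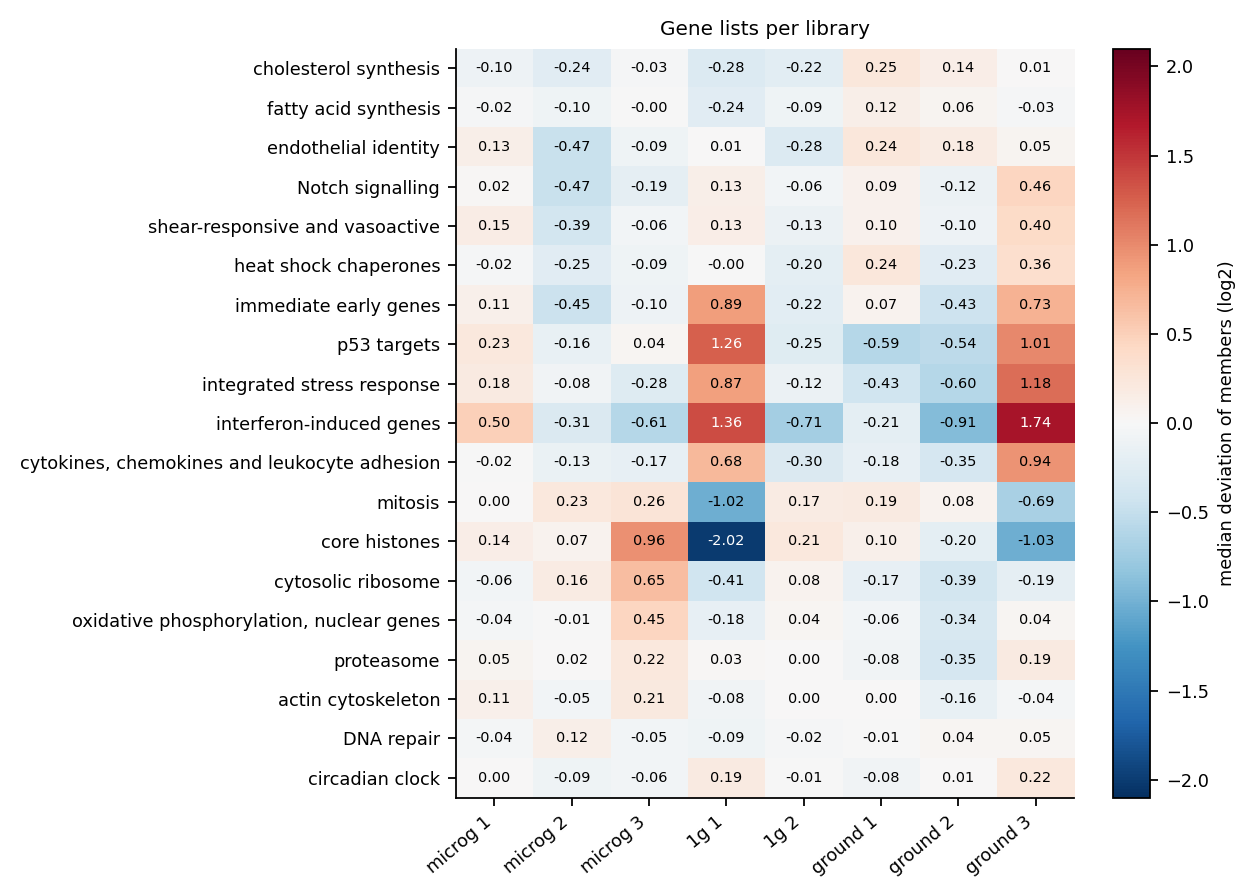
Median deviation of the members of 19 gene lists in each library from their mean over the 6 libraries of the contrast, in log2 units (colour and printed value). Core histones in ground replicate 3 are at -1.03 and the interferon-induced list there is at 1.74, while cytosolic ribosome genes reach 0.65 in space_microg replicate 3.

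Genes that answer damage and infection turned on ground replicate 3. Of 33 targets of p53, 2 were higher without overlap and 0 lower with all libraries, and the median was 0.06. Without ground replicate 3, all 33 had a positive difference, 27 did not overlap (higher), against 16.7% of all genes, and the median was 0.66. MDM2, the ligase that degrades p53, had 1547, 1378 and 1192 CPM in flight and 571, 611 and 1937 CPM on the ground. CDKN1A, the p21 inhibitor of the cell cycle, had 879.6, 539 and 791 CPM against 399, 348 and 2067 CPM. For MDM2 and CDKN1A the flight libraries lay between ground replicates 1 and 2 below them and ground replicate 3 above them. The log2 difference of MDM2 was 0.64 ± 0.54 with all libraries and 1.21 ± 0.42 without ground replicate 3, and that of CDKN1A was 0.13 ± 0.71 and 0.95 ± 0.49. The CDKN1A difference with all libraries has no stable sign: it was -0.31 in edgeR and -0.35 in DESeq2, and 0.23 with the trend on base composition and length removed. CCNG1 and ZMAT3, an RNA-binding target of p53, were the 2 members separated with all libraries, ZMAT3 with 110, 118 and 131 CPM against 57.5, 78.9 and 88.4 CPM.

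The interferon-induced list had 5 of 44 genes with a positive difference with all libraries and 42 of 44 without ground replicate 3, and its median went from -0.26 to 0.53. IFIT1, an antiviral RNA-binding protein, had 64.8, 20.1 and 14.4 CPM in flight and 16.6, 4.10 and 180 CPM on the ground, a log2 difference of 0.13 that was 1.55 without ground replicate 3 and 0.02 with the trend removed, and whose sign with all libraries was negative in edgeR and DESeq2. The flight libraries of IFIT1 overlapped the ground libraries with or without ground replicate 3, and over the list only 6 of 44 did not overlap without it, below the 16.7% of all genes. PSMB8, a subunit of the immunoproteasome, was among the 6, with 58.9, 60.6 and 79.3 CPM against 42.7, 38.6 and 76.1 CPM, and its log2 difference went from 0.38 to 0.68. Genes of the integrated stress response followed: the median of 36 genes was -0.13 with all libraries and 0.43 without ground replicate 3, when 22 of 36 were higher without overlap. SLC7A11, the cystine transporter, had 245, 224 and 120 CPM in flight and 80.5, 86.2 and 183 CPM on the ground. Its log2 difference of 0.78 was 1.16 without ground replicate 3, when the groups did not overlap, and 0.51 with all libraries and the trend on base composition and length removed.

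Histone and mitotic genes were low in ground replicate 3, where the median deviation was -1.03 and -0.69. All 51 core histone genes had a positive difference, 16 without overlap, with a median of 0.72 that was 0.40 without ground replicate 3 and 0.47 without space_microg replicate 3. With ground replicate 3 left out, 16 did not overlap, 31.4% against 16.7% of all genes. HIST4H4, a gene for histone H4, had 19.6, 18.1 and 33.9 CPM in flight and 14.0, 10.6 and 9.84 CPM on the ground, a log2 difference of 0.96 ± 0.37. The libraries kept RNA without a poly(A) tail, as most histone mRNA is, and histone genes are near-identical copies, so single members are uncertain. Of 45 mitotic genes 43 had a positive difference with a median of 0.29, but only 3 did not overlap, near the 7.88% of all genes, and without ground replicate 3 the median was -0.01 with 22 of 45 positive, 3 higher and 4 lower without overlap. With the trend on base composition and length removed the mitotic median was 0.15. KIF20B, a kinesin of cell division, had 204, 252 and 231 CPM in flight and 184, 180 and 111 CPM on the ground, and its log2 difference of 0.56 was 0.32 without ground replicate 3 and 0.22 with the trend removed. DNA replication genes had a median of 0.08, with 3 of 48 lower and 0 higher without overlap. Against ground replicates 1 and 2 alone, the median was 0.02, with 5 lower and 9 higher.

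**Figure D5:**
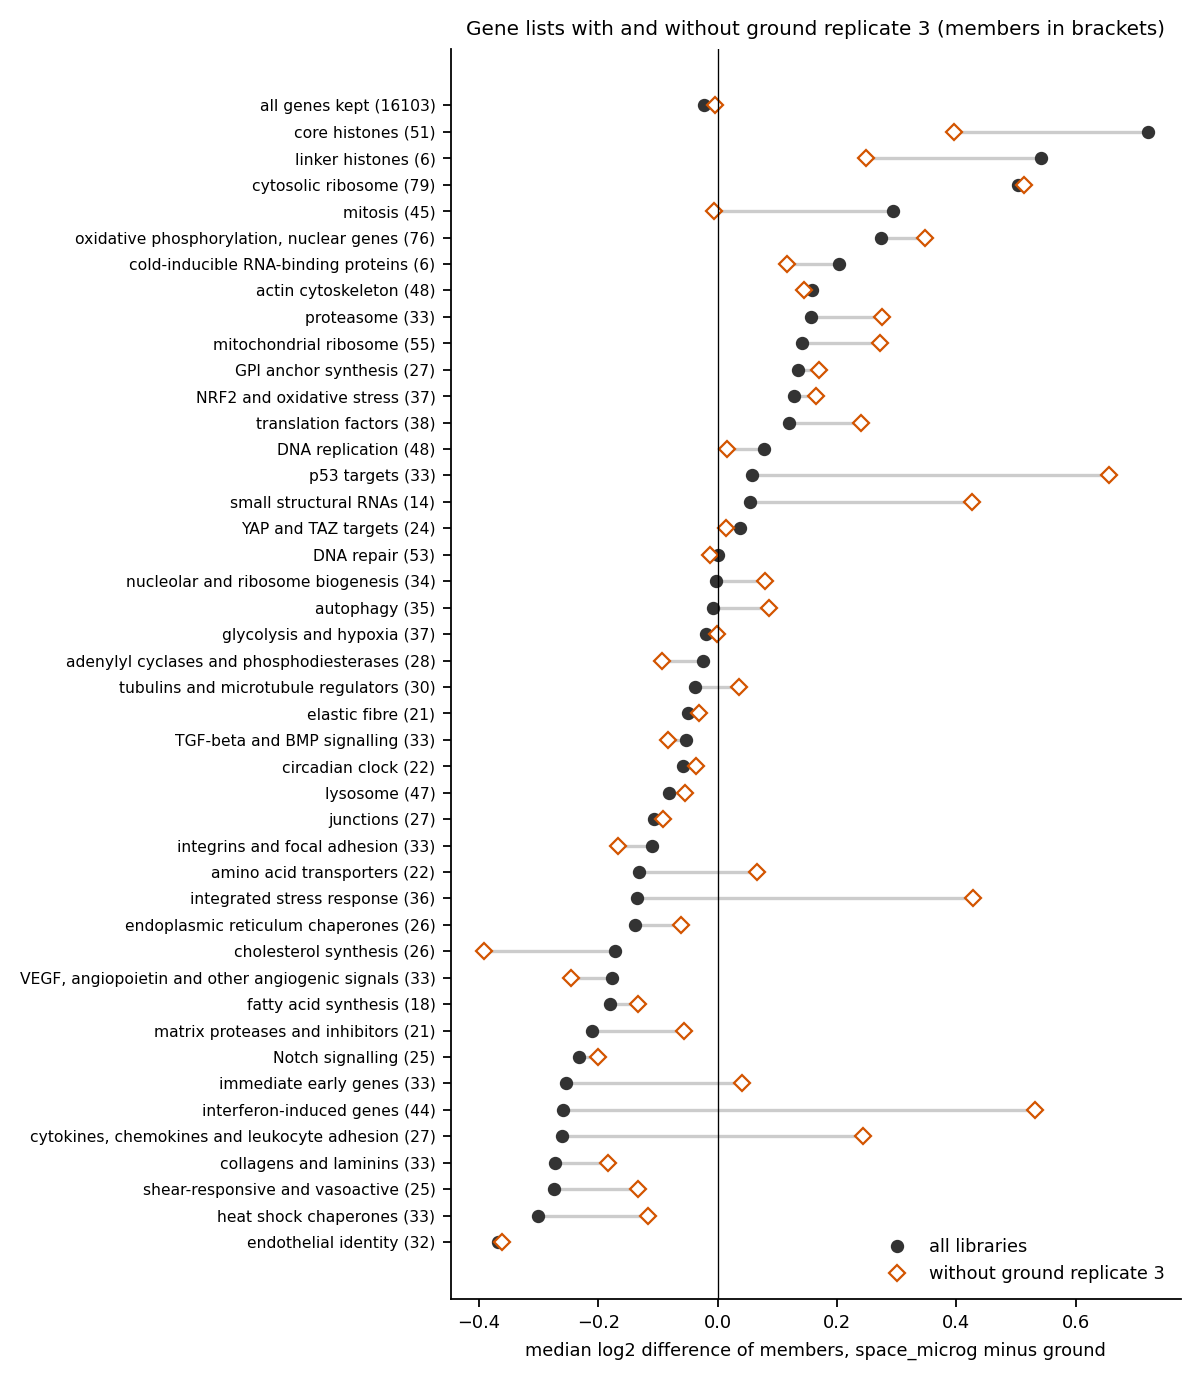
Median log2 difference of space_microg minus ground over the members of each gene list, with all libraries (filled circles) and without ground replicate 3 (open diamonds); member counts are in brackets. The cytosolic ribosome list stays near 0.50 in both, whereas the interferon-induced list goes from -0.26 to 0.53 and the p53 target list from 0.06 to 0.66.

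Genes of DNA repair, asked about because of radiation in orbit, stood at the background: 5 of 53 were higher and 5 lower without overlap (9.43% each, beside 7.88% and 6.53% of all genes), with a median of 0.00. Without ground replicate 3, 9 were higher and 8 lower, with a median of -0.01. RAD51B, of homologous recombination, had 20.5, 28.9 and 19.7 CPM in flight and 35.1, 35.0 and 34.2 CPM on the ground, a log2 difference of -0.60 ± 0.19. OGG1, the glycosylase for oxidised guanine, had 29.5, 24.8 and 28.4 CPM against 34.4, 37.5 and 40.3 CPM, a log2 difference of -0.43 ± 0.15. Both were lower in every flight library, while NBN, of the double-strand break sensor, was higher, with 93.3, 103 and 103 CPM against 85.6, 79.1 and 64.3 CPM. The log2 difference of NBN was 0.39, or 0.15 with the trend on base composition and length removed. Targets of NRF2, a transcription factor of the response to oxidative stress, had 6 of 37 genes higher and 0 lower without overlap. Their median was 0.13. With ground replicate 3 left out, 10 were higher and 2 lower, with a median of 0.17. Among the 6 was NQO1, a quinone reductase, with 165, 162 and 170.3 CPM against 149.6, 116 and 102 CPM.

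The GPI anchor list, to which PIGL belongs, had 7 of 27 higher (25.9%) and 1 lower, with a median of 0.13, and without ground replicate 3 it had 12 (44.4%, against 16.7% of all genes) and 1, with a median of 0.17. Autophagy genes had 6 of 35 higher (17.1%) and 1 lower, with a median of -0.01, and 9 and 1 without ground replicate 3, with a median of 0.09. Lysosomal genes had 5 of 47 higher and 4 lower without overlap, or 7 and 6 without ground replicate 3, with medians of -0.08 and -0.06: CTSO, a cysteine protease, had 4.76, 5.22 and 4.16 CPM in flight and 2.40, 2.47 and 2.02 CPM on the ground, and TPP1, a peptidase, had 159, 136 and 141 CPM against 225, 255 and 169.7 CPM. Circadian genes had 2 of 22 higher and 3 lower, or 4 and 4 without ground replicate 3, with medians of -0.06 and -0.04, and the clearest of them was TEF, with 12.5, 15.4 and 19.0 CPM against 10.3, 9.52 and 7.48 CPM. Genes of glycolysis and hypoxia had 2 of 37 higher and 0 lower, with a median of -0.02. Against ground replicates 1 and 2 alone, the counts were 3 and 4 and the median 0.00.

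Summed levels of markers of other cell types overlapped between the groups for 4 of 5 lists and did not for leukocytes, a list with 1 gene kept. The summed level of 5 fibroblast markers of 10 listed was 200.4 to 356 CPM in flight and 278 to 321 CPM on the ground. That of 6 pericyte and smooth muscle markers of 10 listed was 171 to 242 CPM in flight and 235 to 507 CPM on the ground, and that of 7 epithelial markers of 12 listed 351 to 556 and 336 to 828 CPM, with ground replicate 3 the highest in both. Leukocyte markers were represented by CD14 alone of 11 listed, at 2.56, 1.93 and 2.88 CPM in flight and 1.53, 1.87 and 1.04 CPM on the ground. CD14 was low in every library and higher in every flight library, a log2 difference of 0.48 ± 0.27, or 0.35 without ground replicate 3, and the part of such cells in the other results was not tested. Erythroid and platelet markers were represented by ITGA2B alone of 9 listed, at 1.26 to 3.07 CPM over the 6 libraries. The defining markers PTPRC and HBB had no entry in the deposited values, where CD14 and ITGA2B were the only markers of their lists. EPCAM, CDH1 and PDGFRA are not analysed here. The endothelial markers TEK, KDR, PECAM1 and CDH5 were abundant in every library, with CDH5 at 268 to 434 CPM in flight and 378 to 579 CPM on the ground. Their sum over the endothelial list was 2169.5 to 3332 CPM in flight and 3203 to 3703 CPM on the ground, ranges that overlap.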

How the data were processed

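RNA of HMEC-1 cells was measured by RNA-seq after depletion of ribosomal RNA with a stranded kit, per the labels' protocols (strand setting in counting: not given in the sources used here). Gene-level signal, normalised by the authors and called CPM per the labels, was deposited. The submitters' processing notes list CASAVA 1.8.2, STAR 2.5.3, FastQC, featureCounts and edgeR, and the builds GRCh38 and hg38, with no order. All values were whole multiples of 1 read within 0.001 read (100%), and TMM factors computed from those reads with edgeR 4.0.16 matched the deposited scaling, so columns sum to 966156 to 1061180.

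The filter kept 16103 of 16153 genes. log2(CPM + 1) values, which understate the change of low genes, were fitted with limma 3.58.1 in R 4.3.3 (lmFit, eBayes with a mean trend, two-sided, Benjamini-Hochberg at 0.05), all 8 libraries in one fit. This test, chosen for plain CPM, was also used for the scaled values found. DESeq2 1.42.0 and edgeR's quasi-likelihood test ran on the recovered reads. The script was tested on simulated data.

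Members and gene lists were chosen with earlier results of these data known. Named genes follow a rule: in each direction, among genes without overlap and averaging 5 CPM or more, the 12 smallest p, the 6 largest differences and the 8 smallest p without ground replicate 3, plus up to 4 members by p for each list; not every one is named. INSIG1, HMGCS1, LSS, CYP51A1, HSP90AA1, CDKN1A, IFIT1, PECAM1, PRKACB, PRKAR1A, PRKAR2A, RAPGEF3 and ADCY3 were chosen after their values were seen. Gene positions are from GENCODE v29, which gave a length and base composition for 13870 of the genes kept. Of 48 lists, 43 with at least 5 genes and no cell type marker role were set against each alternative. Replicate pairs within a group differed beyond counting noise (chi-square per degree of freedom 19.4 to 206). Each library was counted once, but technical differences can give such values too, so they do not show separate cultures. Depth covers counting error only: a count of 0 allows up to 3 reads.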

Additional observations from a re-analysis of the deposited data

How the results depend on the processing

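The count of genes called by limma at an adjusted p of 0.05 was 0 in every alternative except array weights, where it was 615 with the default estimate and 2 (RBM3 and ADCY4) with a gene-by-gene estimate added after seeing the data, and it was 3 with DESeq2. The default estimate gave ground replicate 1 a weight of 43.4 and the other libraries 0.18 to 1.79, and its calls support nothing here. Genes with an unadjusted p under 0.05 numbered 696 with all libraries, 253 to 1042 leaving out each library (253 with space_microg replicate 3 left out, 369 for space_microg replicate 2 and 464 for ground replicate 1), 2033 with only the 2 groups and no ground replicate 3, 2032 without ground replicate 3 and space_1g replicate 1, 4057 and 2369 with the default and gene-by-gene weights, and 1 against a log2 limit of 1. Genes without overlap numbered 2321, 2321 to 5352 leaving out each library, and 5352 without ground replicate 3, also with only the 2 groups and without space_1g replicate 1. Leaving out ground replicate 1 or 2 gave 3475 and 3677, so the number of libraries is not all of that rise. Of the genes with an unadjusted p under 0.05, 47.4% were higher in the main test and 63.8% in edgeR.

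CDKN1A had the opposite sign in edgeR (-0.31), in DESeq2 (-0.35) and when single libraries were left out (-0.33 to 0.95), and IFIT1 with a pseudocount of 4 (-0.0020), in edgeR (-0.97), in DESeq2 (-1.02) and when single libraries were left out (-1.02 to 1.55); the cause was not tested. HMGCS1 changed sign when ground replicate 1 or 2 was left out, with a range of -0.45 to 0.10 over single libraries. ADCY3 was at 0.0795 with the trend on base composition and length removed, with or without the replicate block. Of 43 lists, 24 kept the sign of their median in all 27 alternatives.

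Whether the replicate numbers pair the libraries could not be decided. Deviations of same-numbered space_microg and ground libraries correlated at -0.40, 0.56 and 0.05, and those of differently numbered libraries at -0.46 to 0.47. Each deviation was taken from the mean of its own group, and the ground mean includes ground replicate 3, so these correlations cannot settle pairing. With the number as a replicate block, 1013 genes had an unadjusted p under 0.05 and 0 were called, or 757 and 0 with the trend on base composition and length removed as well. With 3 libraries against 3, differences below the spread between libraries were not detectable at this depth.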

Other observations

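Small RNAs with structural roles were spread between libraries more widely than most genes named above. RPPH1, the RNA of ribonuclease P, had 621, 525 and 1722 CPM in flight and 332, 243 and 575 CPM on the ground, so ground replicate 3 lay inside the flight range, and the log2 difference was 1.2 ± 0.48 with all libraries and 1.54 ± 0.48 without that library. RMRP, the RNA of the related ribonuclease MRP, had 518, 526 and 762 CPM in flight and 294, 241 and 914 CPM on the ground, a log2 difference of 0.56 ± 0.46, or 1.15 ± 0.24 without ground replicate 3. Of 14 such RNAs in the table, 0 were higher and 1 lower without overlap, and without ground replicate 3 the counts were 7 and 1, beside 16.7% and 16.6% of all genes.

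Some protein-coding genes that were named for separating the groups without ground replicate 3 did not separate them with it. NRIP3 had 32.6, 28.2 and 32.1 CPM in flight and 12.2, 11 and 44.5 CPM on the ground, a log2 difference of 0.72 ± 0.52, or 1.34 ± 0.34 without ground replicate 3. SHROOM4, an actin-binding protein of cell shape, had 18.0, 15.7 and 14.7 CPM against 31.0, 35.8 and 8.89 CPM, a log2 difference of -0.41 ± 0.44, or -1.01 ± 0.19 (-0.26 with all libraries and the trend on base composition and length removed). DTD1, which clears D-amino acids from transfer RNA, was separated in both cases, with 47.8, 38.5 and 46.8 CPM against 24.5, 20.0 and 37.1 CPM, a log2 difference of 0.72 ± 0.23, or 0.96 ± 0.18. COL1A2, a fibroblast marker in the table, had 28.6, 28.1 and 41.4 CPM in flight and 72.4, 71.7 and 16.4 CPM on the ground, a log2 difference of -0.45, or -1.14 without ground replicate 3.

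By the type of gene in GENCODE v29, the median difference of 12330 protein-coding genes was 0.00, or 0.04 without ground replicate 3. For 65 transcripts inside introns on the sense strand it was -0.19, or -0.46 without ground replicate 3. With all libraries, 1.54% of them had all flight libraries below all ground libraries, beside 6.09% of protein-coding genes. Without ground replicate 3 these shares were 47.7% and 12.9%, against 16.6% of all genes. For 313 processed pseudogenes the median was -0.08, or -0.25 without ground replicate 3. The part of base composition, depth or RNA quality in these differences was not tested.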
